A study of Mus musculus with 12 samples.

Results

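The genes described here act on the RNA of secreted antibody in plasma cells. They are the elongation factor Ell2, its partners Eaf1 and Eaf2, the scaffold Aff1, the polyadenylation factors Cstf2, Cstf3 and Pcf11, and the splicing regulators Hnrnpll, Hnrnpf and Hnrnph1. They were picked by name from a table of 14219 genes, without a rule on their values, but with earlier results of these data known. All 10 were in the table and all 10 were kept by the filter on low counts, among 12704 genes tested. The table holds Jchain and 0 immunoglobulin chain genes, so the secreted and membrane forms of antibody mRNA, on which these factors act, were not analysed here.

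An immunoglobulin heavy chain gene carries a proximal polyadenylation site, which gives the secreted form, and distal exons for the membrane form. In plasma cells Ell2 rises, travels with RNA polymerase II as part of the super elongation complex, and favours the proximal site. Cstf2 and Cstf3 belong to the cleavage stimulation factor, which recognises the sequence downstream of a polyadenylation site, and Pcf11 is a subunit of cleavage factor II that binds the tail of the polymerase. Hnrnpf counteracts Cstf2 at the secretory site, its relative Hnrnph1 binds similar G-rich RNA, and Hnrnpll is a splicing regulator that plasma cells use.

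RNA was sequenced from plasma cells of the bone marrow of C57BL/6 mice of the genotype BLTcre.mcl1fl/+, in which tamoxifen turns on a human CD4 gene as a reporter. The 4 groups were human CD4+ cells (marked) and human CD4- cells (unmarked) taken 270 days after tamoxifen, and marked and unmarked cells taken at 60 days, with 3 libraries each. Every group carries 1 floxed allele of Mcl1 and was exposed to tamoxifen. Whether Cre also recombined this allele in the marked cells was not tested, so marking and Mcl1 dose are not separated here. The cells in which this Cre is active, the sort gates, the age and the sex of the mice are not given in the labels. A marked and an unmarked library of 1 day share a specimen number. Whether the specimens are separate mice is not stated, so p-values measure the spread between these samples, which may be technical.

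The libraries held 7449469 to 15943546 reads on the genes of the table. Marked libraries 2 and 3 of day 270 stood apart, with a read on 11022 and 11301 genes, against 12580 to 13506 in the other 10. Features resembling ribosomal RNA took 28.9% of the reads of marked library 2 of day 270 and 11.3% of those of marked library 2 of day 60, and at most 3.04% elsewhere. Plasma cell markers were high throughout: the lowest library had 551 CPM (reads scaled to a fixed library total) of Irf4, 3931 CPM of Xbp1, 129 CPM of Prdm1 and 79040 CPM of Jchain. Of the markers of other cells, the summed erythroid genes were higher in marked cells without overlap on both days. These 7 genes in the table had 180 to 788 CPM in marked and 28.5 to 166 CPM in unmarked cells of day 270. At day 60 they had 107 to 346 CPM against 37.3 to 62.9 CPM. The summed 12 monocyte and macrophage genes had 275 to 708 CPM in marked and 167 to 371 CPM in unmarked cells of day 270, and 150 to 272 CPM against 108 to 324 CPM at day 60, which overlapped on both days. The sums of neutrophil, B cell, T and NK cell and megakaryocyte markers also overlapped between marked and unmarked cells on both days. The part of other cells, of library quality or of library numbers in the results below was not tested. Values were scaled to the library total. Compared with TMM scaling this shifts the median log2 fold change of all genes by -0.13 at day 270 and by -0.12 at day 60 (marked over unmarked), so some differences are also given relative to the median gene.

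Per kilobase of exon, Ell2 and Eaf2 had the highest levels of the 10 genes. Ell2 averaged 48.9 CPM per kb over the 12 libraries (range 31.4 to 57.8), and Eaf2 averaged 48.6 CPM per kb (range 27.0 to 57.0). These levels did not differ beyond their spread, with Ell2 above Eaf2 in 8 of 12 libraries. Hnrnpf followed at 25.2, Hnrnph1 at 18.9 and Aff1 at 10.6 CPM per kb. Eaf1 at 7.00 and Cstf2 at 6.30 CPM per kb were close neighbours, with Eaf1 above Cstf2 in 9 of 12 libraries. Cstf3 averaged 2.80, Hnrnpll 1.94 and Pcf11 1.85 CPM per kb, and Hnrnpll was above Pcf11 in 5 of 12 libraries. On the CPM scale, without length, Ell2 averaged 481 CPM and ranked 206 of 14219 genes, while Eaf2 averaged 212 CPM. The exon length merges the exons of all annotated transcripts of a gene and is not the length of 1 RNA. Levels per kb, and their order between genes, depend on that choice.

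Within families, 1 relative usually prevailed. Ell2 was above Ell, the ubiquitous family member, in 12 of 12 libraries, with a median ratio of 8.40 in CPM per kb. Eaf2 was above Eaf1 in 12 of 12 libraries, with a median ratio of 7.09. Hnrnpl, the broadly expressed relative of Hnrnpll, was above it in 12 of 12 libraries, with a median ratio of 15.7. For the RNA-binding cleavage stimulation subunit the order depended on the length. In CPM per kb, Cstf2 was above its retrogene-derived copy Cstf2t in 1 of 12 libraries, with a median ratio of 0.743. Without length the order was the reverse, with means of 57.9 CPM for Cstf2 and 36.9 CPM for Cstf2t. Their merged exon lengths were 9180 and 4233 bases. Reads of such relatives can be split by the counting, which is not given in the sources used here, so these ratios are uncertain where their sequences are nearly identical.

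**Figure D1:**
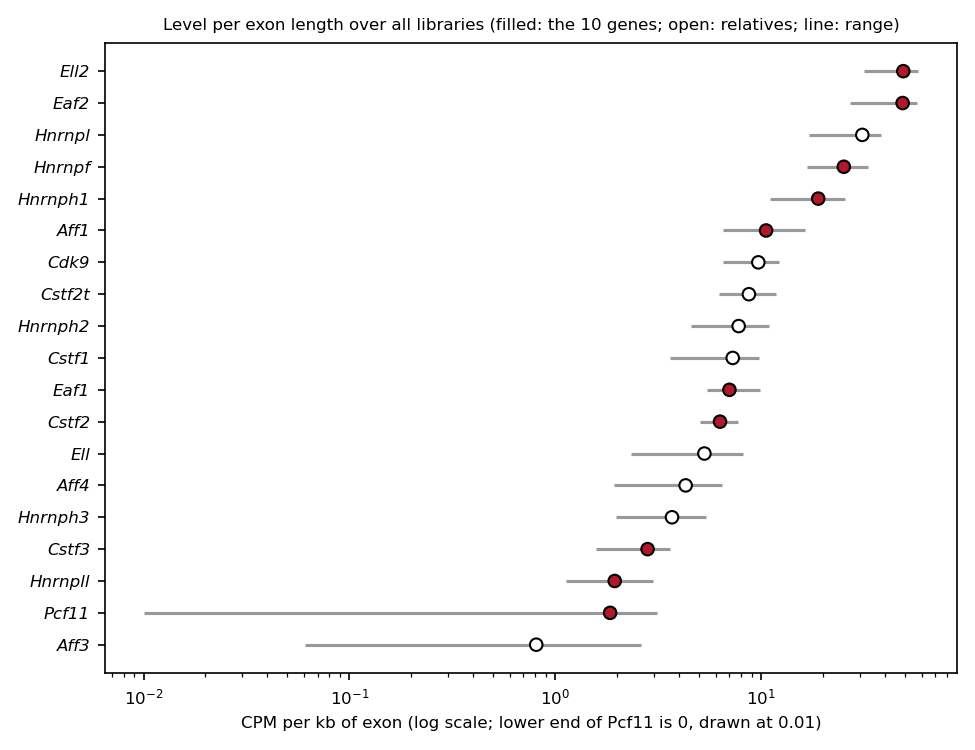
Mean CPM per kb of exon over the 12 libraries on a log axis, with a line from the lowest to the highest library. Filled points are the 10 genes and open points are relatives. Ell2 and Eaf2 lie at the top at 48.9 and 48.6 CPM per kb. The lowest value of Pcf11 is 0, which a log axis cannot show, so its line ends at a drawn floor.

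Ell2 (13:75706757-75772364, plus strand, GRCm38, GENCODE M21) was detected at a high level in every library. At day 270 it had 450, 406 and 542 CPM in marked libraries 1, 2 and 3, against 569, 565 and 496 CPM in unmarked libraries 1, 2 and 3. At day 60 it had 309, 403 and 501 CPM in marked libraries, against 479, 554 and 498 CPM in unmarked libraries. The groups overlapped on both days, since library 3 of the marked cells lay within the range of the unmarked libraries.

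The log2 fold change of Ell2, marked over unmarked, was -0.23 ± 0.18 (SE) at day 270 (limma, adjusted p = 0.576, n = 3 each) and -0.36 ± 0.18 at day 60 (adjusted p = 0.804). Averaged over both days it was -0.29 ± 0.12, with a confidence interval of -0.56 to -0.03 (unadjusted p = 0.0300, adjusted p = 0.243), and the marked library was lower in 4 of 6 specimen pairs, or 5 of 6 with TMM totals. Relative to the median gene it was 0.00 at day 270 with TMM scaling and -0.22 at day 60. Ell2 did not pass the test in any comparison of the marking, and its marked-over-unmarked difference was not shown to differ between the days (interaction 0.13 ± 0.25, day 270 minus day 60, adjusted p = 1.0). In bulk RNA of this kind, fewer cells of a type and less RNA per cell cannot be told apart.

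Eaf1 (14:31494399-31509858, plus strand), which binds ELL-family factors and stimulates their elongation activity, was lower in marked cells at day 270 without overlap. It had 31.1, 31.7 and 36.0 CPM in marked libraries of day 270, against 47.7, 54.4 and 40.5 CPM in unmarked libraries. Its day 60 values were 30.6, 30.9 and 38.5 CPM in marked libraries, against 29.8, 49.7 and 40.4 CPM in unmarked libraries, which overlapped. The log2 fold change was -0.51 ± 0.24 at day 270 (limma, unadjusted p = 0.0489, adjusted p = 0.357), which did not pass the test, and -0.23 ± 0.24 at day 60 (adjusted p = 0.952).

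The start of Eaf1 shares 139 exon bases with Mettl6, a gene on the opposite strand, and whether the counting used strand is not given in the sources used here. Mettl6 had 12.9, 4.56 and 10.8 CPM in marked and 19.1, 22.4 and 17.8 CPM in unmarked libraries of day 270. Its part in the Eaf1 values was not tested.

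Eaf2 (16:36792884-36875003, minus strand), the second ELL-associated factor, lay between 185 and 249 CPM in 11 of the 12 libraries. It had 185, 118 and 231 CPM in marked libraries of day 270, against 215, 225 and 216 CPM in unmarked libraries. At day 60 it had 224, 218 and 249 CPM in marked libraries, against 229, 222 and 214 CPM in unmarked libraries. Its lowest value, 118 CPM, came from marked library 2 of day 270, the library with 28.9% of reads on features resembling ribosomal RNA. In limma the log2 fold change was -0.35 ± 0.19 at day 270 (adjusted p = 0.432) and 0.05 ± 0.19 at day 60 (adjusted p = 0.991).

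Aff1 (5:103692374-103855322, plus strand), which holds the super elongation complex together, correlated with Ell2 across libraries. The Pearson r was 0.816 on log2 CPM over 12 libraries, which share their totals, and ranked 397 among 7818 genes. It had 85.6, 98.5 and 112 CPM in marked libraries of day 270, against 115, 154 and 95.3 CPM in unmarked libraries. Its day 60 values were 62.0, 68.1 and 121 CPM in marked libraries, against 93.5, 94.0 and 98.1 CPM in unmarked libraries. The groups overlapped on both days, and neither difference passed the test (-0.28 ± 0.24, adjusted p = 0.614 at day 270; -0.25 ± 0.24, adjusted p = 0.944 at day 60).

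**Figure D2:**
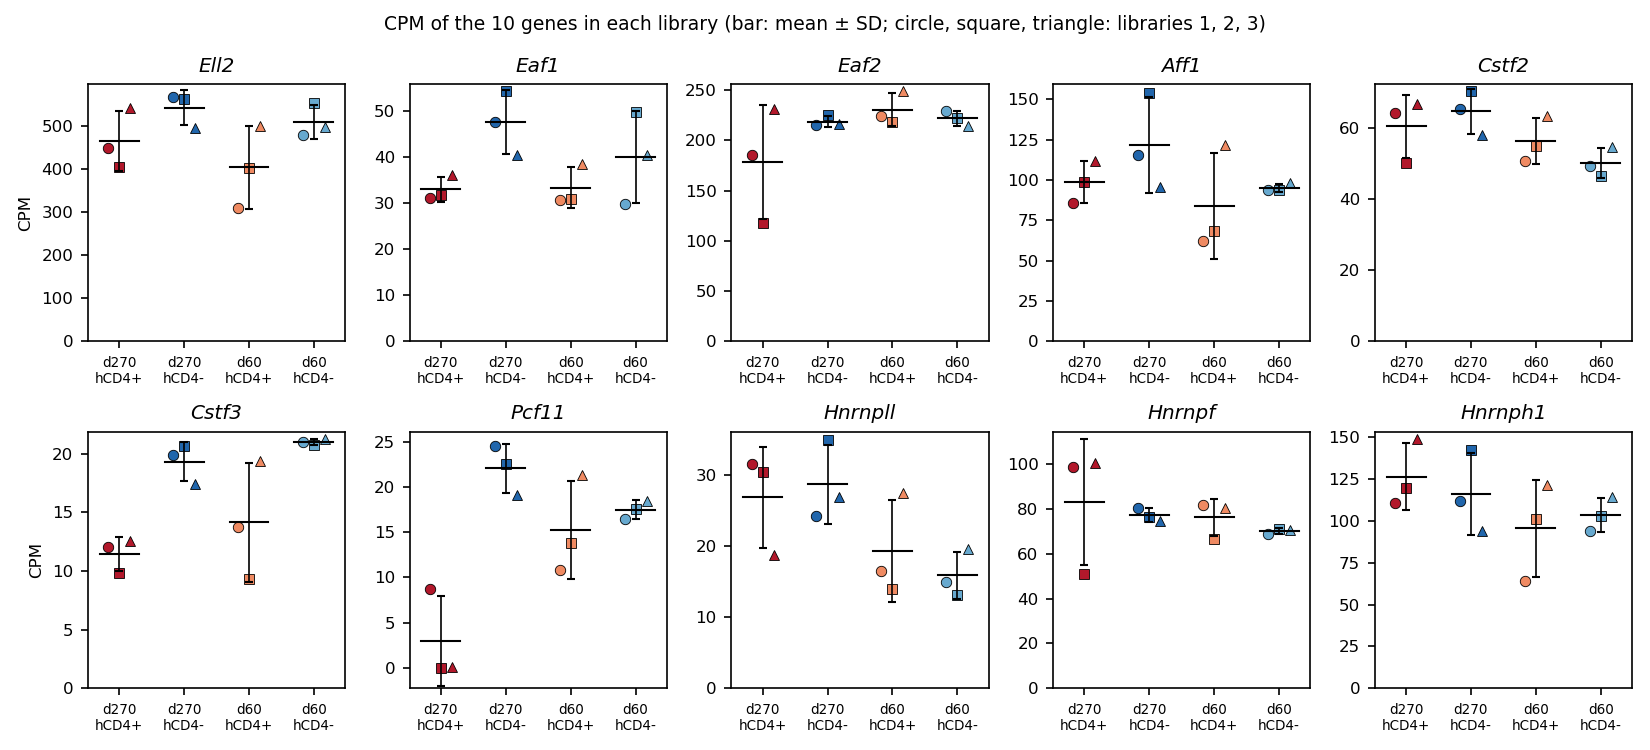
CPM of the 10 genes in each library, by group, with the mean and SD of 3 libraries; circles, squares and triangles are libraries 1, 2 and 3. Pcf11 has 8.72, 0 and 0.108 CPM in marked cells of day 270, below all other libraries, while Ell2 lies between 309 and 569 CPM in all groups.

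Cstf2 (X:134059187-134086819, plus strand), the RNA-binding subunit of the cleavage stimulation factor, had 64.2, 50.2 and 66.9 CPM in marked libraries of day 270, against 65.5, 70.5 and 58.0 CPM in unmarked libraries. At day 60 it had 50.6, 55.0 and 63.3 CPM in marked libraries, against 49.3, 46.4 and 54.7 CPM in unmarked libraries. The groups overlapped on both days. The log2 fold change was -0.10 ± 0.20 at day 270 (limma, adjusted p = 0.854), where it was 0.03 with TMM scaling, and 0.16 ± 0.20 at day 60 (adjusted p = 0.965).

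Cstf2 ends in 399 exon bases that lie on Nox1, an NADPH oxidase gene on the opposite strand. Nox1 had 205, 254 and 181 CPM in marked and 85.3, 126 and 87.1 CPM in unmarked libraries of day 270, and 129, 120 and 172 CPM in marked and 76.7, 44.7 and 45.6 CPM in unmarked libraries of day 60. It rose in marked cells at both days (limma, log2 fold change 1.11, adjusted p = 0.0433 at day 270; 1.36, adjusted p = 0.0163 at day 60). Without strand, reads of Nox1 in these bases cannot be told apart from reads of Cstf2.

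Cstf3 (2:104590523-104665429, plus strand), the scaffold subunit that joins Cstf2 to the rest of the factor, was lower in marked cells in all 6 specimen pairs. At day 270 it had 12.04, 9.80 and 12.55 CPM in marked libraries, against 19.9, 20.7 and 17.4 CPM in unmarked libraries. Its day 60 values were 13.7, 9.28 and 19.4 CPM in marked libraries, against 21.0, 20.8 and 21.3 CPM in unmarked libraries. On each day every marked library lay below every unmarked one. Of all genes tested, 7.64% were lower in all 6 pairs.

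The log2 fold change of Cstf3 was -0.73 ± 0.33 at day 270 (limma, unadjusted p = 0.0412, adjusted p = 0.337) and -0.61 ± 0.33 at day 60 (adjusted p = 0.858). Averaged over both days it was -0.67 ± 0.24 (unadjusted p = 0.0105, adjusted p = 0.167), and -0.49 relative to the median gene. It passed the test in no comparison, and was lower in 6 of 6 pairs with TMM totals too, as were 5.68% of genes. The day 60 difference rested more on library 2, where the marked library was 1.12 log2 units below its unmarked partner, than on library 3, where the difference was -0.13.

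A ratio of the reads of 2 genes within a library does not depend on the library total. Cstf2 reads per Cstf3 read were 5.33, 5.12 and 5.33 in marked libraries of day 270, against 3.29, 3.41 and 3.32 in unmarked libraries. At day 60 the ratio was 3.68, 5.92 and 3.26 in marked libraries, against 2.35, 2.23 and 2.57 in unmarked libraries. All marked libraries of a day were above all unmarked ones, by 0.73 log2 units on average over the 6 pairs. This is a description with no test: the ratio was 1 of 4 chosen after Cstf3 had been seen lower in all 6 pairs. The part of Nox1 reads in its numerator was not tested.

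**Figure D3:**
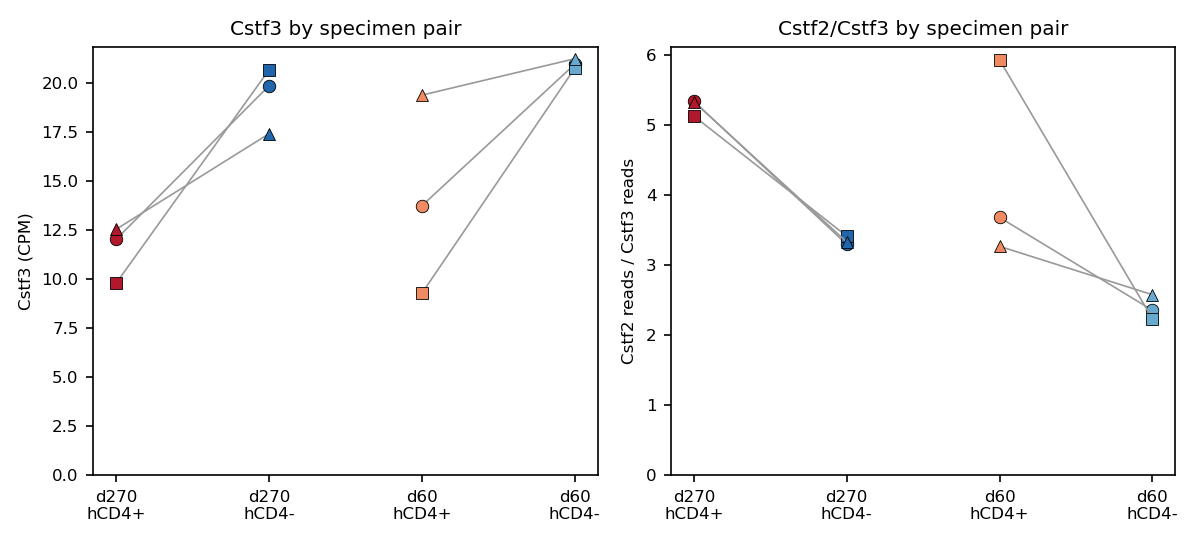
Cstf3 in CPM (left) and Cstf2 reads per Cstf3 read (right) in each library, with a line joining the marked and the unmarked library of a specimen. Cstf3 is lower in the marked library of each of the 6 pairs, and the ratio is higher in each.

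Pcf11 (7:92643543-92669934, minus strand) was the single member that passed the test. It fell in marked cells at day 270, where marked libraries 1, 2 and 3 had 8.72, 0 and 0.108 CPM, against 24.5, 22.5 and 19.1 CPM in unmarked libraries. These are 139, 0 and 1 reads in marked and 266, 234 and 257 reads in unmarked libraries. At day 60 it had 10.8, 13.8 and 21.3 CPM in marked libraries, against 16.4, 17.6 and 18.4 CPM in unmarked libraries. The day 270 groups did not overlap, whereas those of day 60 did. In marked library 2 of day 270 a count of 0 allows up to 3 reads, or 0.403 CPM, for counting error alone.

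Pcf11 shares 241 exon bases with 6430511E19Rik, a transcript on the opposite strand. That transcript had 0 reads in the 3 marked libraries of day 270, against 10, 13 and 32 reads in unmarked libraries 1, 2 and 3. Pcf11 had 234 to 266 reads in those unmarked libraries, and the part of this transcript in the Pcf11 values was not tested.

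The log2 fold change of Pcf11 at day 270 was -3.99 ± 0.76, with a confidence interval of -5.58 to -2.40 (limma, adjusted p = 0.0238, n = 3 each). At day 60 it was -0.24 ± 0.76 (adjusted p = 0.989). The difference between these, day 270 minus day 60, was -3.75 ± 1.07 (unadjusted p = 0.00255, adjusted p = 1.0), so the effects of the days were not shown to differ. Limma called 0.0% of all genes for that difference, and 3.05% had an unadjusted p under 0.05, Pcf11 among them. Over 23 alternatives the adjusted p of this difference was 0.00262 to 1.0, and the lowest came without marked library 1 of day 270. Averaged over both days it was -2.12 ± 0.53 (adjusted p = 0.0504), where a fit that blocks on the specimen gave 0.0333; 23 alternatives gave 0.000113 to 0.261. Between days in marked cells it was -3.43 ± 0.76 (day 270 over day 60, adjusted p = 0.210), and 0.00012 to 0.781 over 18 alternatives, the lowest again without that library.

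Set against unmarked cells of day 60, marked cells of day 270 were again lower, with a log2 fold change of -3.67 ± 0.76 (limma, adjusted p = 0.0178). It was the 1 member called of 10, where limma called 1.54% of all genes, and 3 of 10 had an unadjusted p under 0.05 (Pcf11, Cstf3 and Hnrnpll), where 14.4% did. The adjusted p of Pcf11 here ranged from 4.99e-05 to 0.482 over alternatives, and was 0.180 with edgeR and 0.482 without marked libraries 2 and 3 of day 270. This comparison uses the same marked libraries and is no second observation. The authors' deposited table of this comparison lists Pcf11 among its 265 genes, with a log2 fold change of -4.96 and an FDR of 0.0238, and holds no other of the 10 genes. The authors' deposited table of day 60 gave Ell2 a log2 fold change of -0.23 (FDR 0.696), Cstf3 -0.44 (FDR 0.793) and Pcf11 -0.11 (FDR 0.985).

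The size of the Pcf11 difference came mostly from marked libraries 2 and 3 of day 270. The call held without either alone (limma, adjusted p = 0.0483 without library 2 and 0.0425 without library 3). Without both, the log2 fold change was -1.28, and the library that remained was still below all 3 unmarked ones. The adjusted p of 0.432 then takes the spread from the other groups, since the lone marked library gives none. The adjusted p ranged from 1.26e-05, without marked library 1, to 0.432 over 18 alternatives. It was 0.238 with edgeR, where the fold change was -2.71, and 0.157, 0.125 and 0.116 without unmarked library 1, 2 or 3 of day 270. DESeq2 gave Pcf11 no p in this comparison.

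Absence of reads was more common in these libraries. Of 2720 genes with a mean of 10 to 25 CPM over the 10 other libraries, 50 had 0 or 1 read in marked library 2 of day 270 (1.84%) and 24 in marked library 3 (0.882%), against at most 2 in any other library. Pcf11 averaged 17.3 CPM in the 10 other libraries. Over 7811 genes with a mean of at least 10 CPM there, 52 had 0 or 1 read in library 2 and 25 in library 3. In both libraries 2 genes had 0 or 1 read, Pcf11 with 0 and 1 and Il2rb with 0 in each. Il2rb is an interleukin receptor chain that averaged 13.4 CPM in the others and was picked out after the values had been seen. The part of this loss of reads in the Pcf11 result was not tested.

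**Figure D4:**
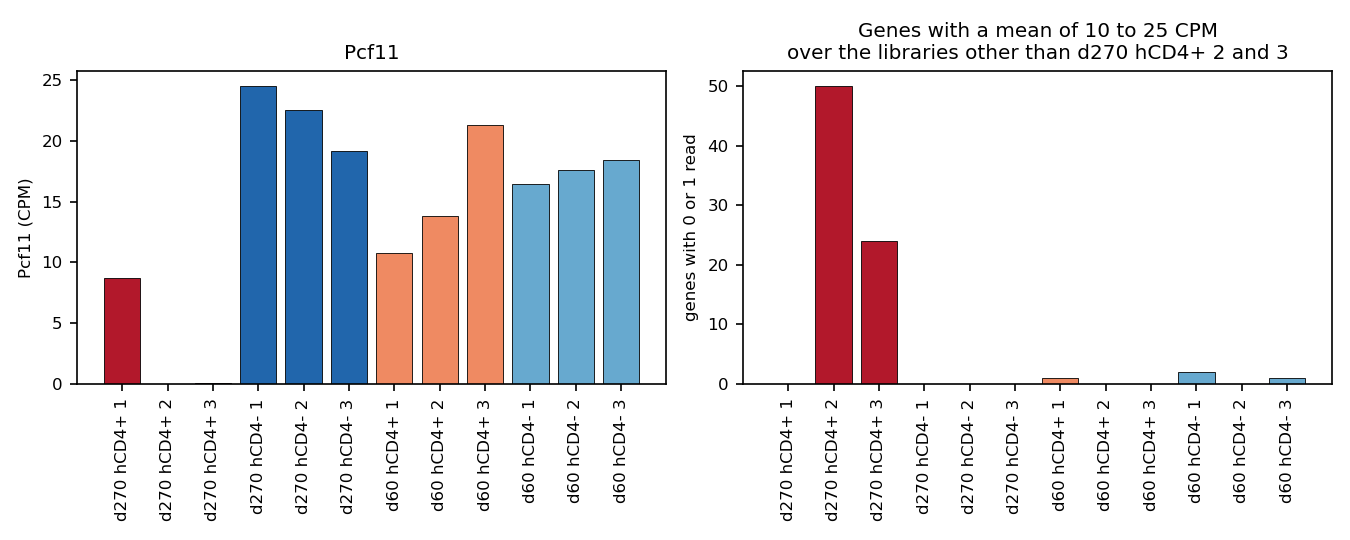
Left, Pcf11 in CPM in each library; right, number of genes with 0 or 1 read among 2720 genes with a mean of 10 to 25 CPM over the libraries other than marked 2 and 3 of day 270. The libraries with 0 and 0.108 CPM of Pcf11 are those with 50 and 24 such genes.

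Among the splicing regulators, Hnrnpll (17:80029487-80062334, minus strand) was higher at day 270 than at day 60 in unmarked cells. It had 24.2, 34.9 and 26.9 CPM in unmarked libraries of day 270, against 14.9, 13.1 and 19.5 CPM in unmarked libraries of day 60. In marked cells it had 31.5, 30.5 and 18.7 CPM at day 270, against 16.5, 13.9 and 27.4 CPM at day 60, which overlapped. The log2 fold change of day 270 over day 60 was 0.84 ± 0.33 in unmarked cells (limma, unadjusted p = 0.0210, adjusted p = 1.0), and 0.66 ± 0.23 over both populations (adjusted p = 0.381), neither of which passed the test. Marked over unmarked it was -0.11 ± 0.33 at day 270, where it was 0.02 with TMM scaling, and 0.23 ± 0.33 at day 60.

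Hnrnpf (6:117900324-117925622, plus strand) had 98.5, 50.7 and 100.3 CPM in marked libraries of day 270, against 80.6, 76.3 and 74.6 CPM in unmarked libraries. Its day 60 values were 81.7, 66.5 and 80.2 CPM in marked libraries, against 68.7, 71.1 and 70.6 CPM in unmarked libraries. Marked cells spread to both sides of the unmarked ones, and the low value again came from marked library 2 of day 270. Hnrnpf shares 410 exon bases with 4933440N22Rik on the opposite strand, which had at most 3.57 CPM in any library. In limma the log2 fold change was 0.04 ± 0.23 at day 270 (adjusted p = 0.951) and 0.11 ± 0.23 at day 60 (adjusted p = 0.987).

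Hnrnph1 (11:50376990-50386528, plus strand) had 111, 119 and 149 CPM in marked libraries of day 270, against 112, 142 and 94.2 CPM in unmarked libraries. At day 60 it had 64.3, 101 and 121 CPM in marked libraries, against 93.7, 103 and 114 CPM in unmarked libraries. The groups overlapped on both days, with log2 fold changes of 0.13 ± 0.23 at day 270 and -0.16 ± 0.23 at day 60 (limma, adjusted p = 0.836 and 0.981). Hnrnpf reads per Hnrnph1 read were 0.892, 0.425 and 0.674 in marked and 0.719, 0.536 and 0.793 in unmarked libraries of day 270, and 1.27, 0.657 and 0.662 in marked and 0.733, 0.691 and 0.619 in unmarked libraries of day 60. That ratio overlapped on both days, with a mean difference of 0.09 log2 units over the 6 pairs. The ratios of Eaf2 to Eaf1 and of Ell2 to Ell also overlapped between marked and unmarked libraries on both days.

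**Figure D5:**
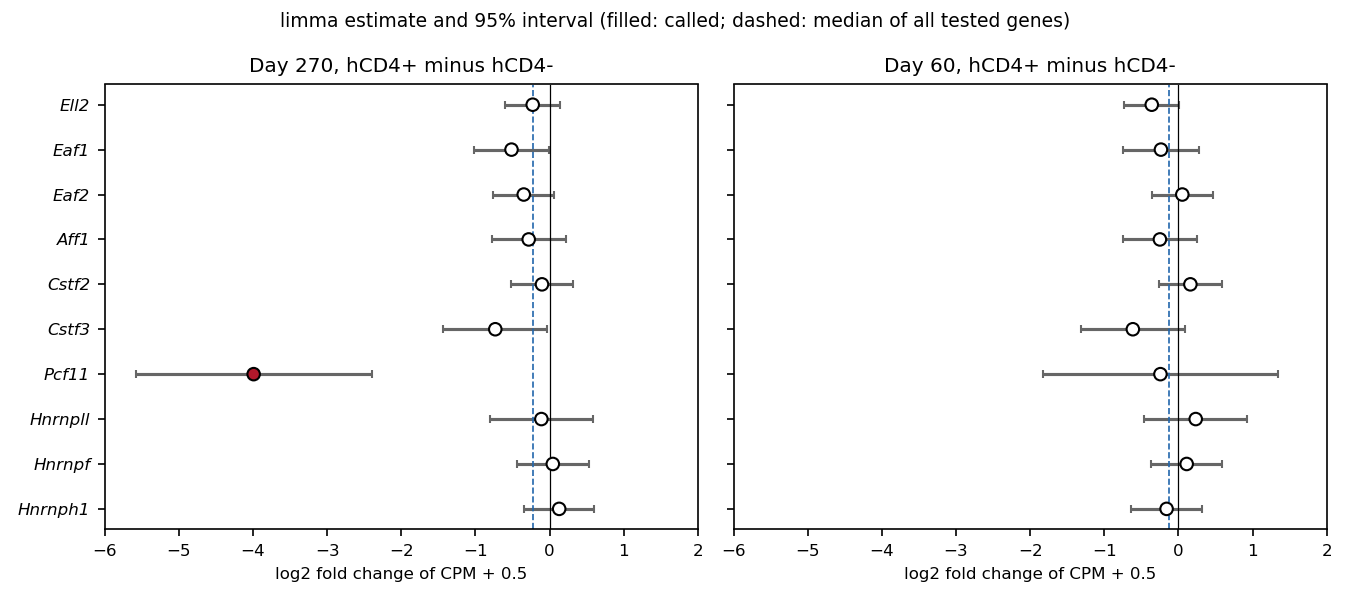
Log2 fold change of CPM + 0.5 with its confidence interval for the 10 genes, marked over unmarked, at day 270 (left) and day 60 (right). The filled point is the single call, Pcf11 at -3.99, and the dashed line is the median of all genes tested, -0.22 at day 270 and -0.13 at day 60.

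The counts over the 10 genes were set beside those over all genes, with no test of the list. At day 270, 1 of 10 was called in marked over unmarked cells, where limma called 0.48% of the 12704 genes, and 3 of 10 had an unadjusted p under 0.05 (Pcf11, Eaf1 and Cstf3), where 14.0% of all genes did. Groups lay apart for the same 3 genes, with marked lower, where 15.2% of all genes lay apart in either direction. The median log2 fold change was -0.25 for the 10 genes and -0.22 for all genes, and 8 of 10 were negative where 69.2% of all genes were. At day 60, 0 of 10 were called by limma, edgeR, DESeq2 or limma-voom and 0 had an unadjusted p under 0.05, where limma called 0.189% of all genes and 6.45% had such a p. The groups of day 60 lay apart for Cstf3, with marked lower, where 15.8% of all genes lay apart in either direction. At day 60, 6 of 10 were negative, where 63.9% of all genes were. Over both days 0 of 10 were called by limma, where 1.84% of all genes were, and 4 of 10 had an unadjusted p under 0.05 (Ell2, Eaf1, Cstf3 and Pcf11), where 16.9% of all genes did.

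Between days, 0 of 10 genes were called by limma in marked cells (background 0.0315%), in unmarked cells (background 0.0%) or in both together (background 0.189%). An unadjusted p under 0.05 was reached by 2, 1 and 2 genes: Pcf11 and Eaf2 in marked cells, Hnrnpll in unmarked cells, and Pcf11 and Hnrnpll over both, where 9.64%, 2.98% and 8.53% of all genes did. In unmarked cells Cstf2, Pcf11, Hnrnpll and Hnrnpf were higher at day 270 than at day 60 without overlap, and Cstf3 was lower, where 12.8% of all genes lay apart in either direction. For these genes the log2 fold changes were 0.36 ± 0.20, 0.32 ± 0.76, 0.84 ± 0.33 and 0.14 ± 0.23, for Cstf3 it was -0.12 ± 0.33, and the median of all genes was 0.12. In marked cells Pcf11 was the 1 member that lay apart between days, lower at day 270, where 10.5% of all genes lay apart.

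The wider machinery was described from lists that leave out the 10 members. Of 15 genes of the super elongation complex and P-TEFb, 13 had a negative log2 fold change at day 270 and 13 at day 60 (marked over unmarked), with medians of -0.50 and -0.42, beside -0.22 and -0.13 for all genes. None was called by limma, edgeR, DESeq2 or limma-voom on either day, and 2 had an unadjusted p under 0.05 on each day. With TMM scaling the medians were -0.37 and -0.29, beside -0.10 and -0.01 for all genes. Of all genes, 69.2% at day 270 and 63.9% at day 60 had a negative log2 fold change with scaling to the total. Ell had 16.9, 8.19 and 7.25 CPM in marked and 22.3, 19.1 and 25.3 CPM in unmarked libraries of day 270 (log2 fold change -1.10 ± 0.37, limma, unadjusted p = 0.00806, adjusted p = 0.206). Cdk9, the kinase of P-TEFb, had log2 fold changes of -0.50 ± 0.23 at day 270 and -0.27 ± 0.23 at day 60, and the scaffold Aff4 had -0.63 ± 0.30 and -0.43 ± 0.30. Neither passed the test.

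Of 16 pausing and elongation factors, 14 were negative at day 270 and 14 at day 60, with medians of -0.36 and -0.31 and 0 calls by limma. Of 19 cleavage and polyadenylation factors, 16 were negative at day 270 and 17 at day 60, with medians of -0.25 and -0.24 and 0 calls by limma. Nudt21, a cleavage factor I subunit, had log2 fold changes of 0.25 ± 0.50 and -0.05 ± 0.50, its partner Cpsf6 -0.22 ± 0.23 and -0.36 ± 0.23, and Cstf2t -0.05 ± 0.27 and 0.14 ± 0.27 (day 270 and day 60). Of 30 hnRNP and splicing regulators, 23 were negative at day 270 and 22 at day 60, with medians of -0.14 and -0.16 and 0 calls by limma. Of all genes, 69.2% were negative at day 270 and 63.9% at day 60, with medians of -0.22 and -0.13. With TMM scaling the medians of these 3 lists were -0.23, -0.12 and -0.01 at day 270, beside -0.10 for all genes. At day 60 they were -0.19, -0.11 and -0.04, beside -0.01. Ptbp1, a repressor of exon inclusion, had -0.32 ± 0.19 and -0.50 ± 0.19, Hnrnpl -0.29 ± 0.24 and -0.40 ± 0.24, Hnrnph2 -0.64 ± 0.27 and 0.06 ± 0.27, and Snrpa, a U1 snRNP protein that can block polyadenylation, 0.30 ± 0.28 and -0.06 ± 0.28. In these 3 lists of 16, 19 and 30 genes, 3, 1 and 3 had an unadjusted p under 0.05 at day 270, where 14.0% of all genes did, and 2, 2 and 1 at day 60, where 6.45% did. On either day edgeR, DESeq2 and limma-voom called 0. Over both days the calls were by other tools: DESeq2 and limma-voom called Rtf1, a subunit of the PAF1 complex (-0.82, adjusted p = 0.0241, and -0.86, adjusted p = 0.0455), and DESeq2 called Aff3 (-1.60, adjusted p = 0.0482). Both were picked out after their values had been seen. Over both days DESeq2 called 544 and limma-voom 312 of all 12704 genes.

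Plasma cell regulators and other plasma cell genes were also not called by limma. Irf4, which activates the plasma cell program, had a log2 fold change of -0.40 ± 0.18 at day 270 (adjusted p = 0.339) and -0.27 ± 0.18 at day 60 (adjusted p = 0.905), marked over unmarked. Prdm1, which silences the B cell program, had -0.34 ± 0.23 (adjusted p = 0.510) and -0.38 ± 0.23 (adjusted p = 0.866). Xbp1, a driver of secretory capacity, had -0.11 ± 0.19 and -0.15 ± 0.19, the survival receptor Tnfrsf17 had 0.06 ± 0.16 and 0.27 ± 0.16, and Jchain had -0.47 ± 0.54 and 0.06 ± 0.54. Of the marker lists, the haemoglobin genes Hbb-bs, Hba-a1, Hbb-bt and Hba-a2 rose in marked cells over both days (2.14, 2.20, 2.61 and 2.17, limma, adjusted p = 0.00917 to 0.0211), of which limma-voom called Hbb-bs and Hba-a1. Vcam1, of the macrophage list, rose in marked cells of day 270 over unmarked cells of day 60 (2.49, adjusted p = 0.0244).

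The 5 genes most like Ell2 over the 12 libraries, by Pearson correlation of log2(CPM + 0.5) among 7818 genes with a mean of at least 10 CPM, were Osbp (r = 0.970), Rasa3 (0.961), Ralgps2 (0.953), Wdr1 (0.952) and Tmcc3 (0.947). With TMM totals the correlations of these genes were 0.821 to 0.898, and 3 of the 5 were still among the first 5. Since all libraries share a scaling by total, part of each correlation comes from the totals. Of the members, Aff1 (r = 0.816), Eaf1 (0.748) and Hnrnph1 (0.720) were most like Ell2, at ranks 397, 847 and 1070. Eaf2, which was near Ell2 in CPM per kb, had r = 0.297, and Pcf11 had the lowest r, 0.185.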

How the data were processed

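The submitters' processing notes name GRCm38 and limma without a version or a role. No aligner, counter, annotation or strand setting is given in the sources used here. RNeasy Micro and TruSeq RNA kits gave the RNA and the libraries, per the labels' protocols. The authors deposited CPM per gene and library (14219 genes, and 265 genes in a second table), with log2 fold changes, a p-value and an FDR, and raw counts for 230 genes. The deposited CPM were turned back into reads: of 151342 values below 1000 reads, 100% came within 0.05 of an integer, the worst being off by 0.00801, and the recovered reads equalled 100% of the deposited counts of those 230 genes. The totals cover the table's genes and are not the full depth, and floors cover counting error only.

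The 10 genes, the lists and the tests were chosen with earlier results of these data known. limma 3.58.1 (R 4.3.3, trended prior) was fitted to log2(CPM + 0.5) of 12704 genes that filterByExpr of edgeR 4.0.16 kept at a minimum count of 10 (1515 removed). All 12 libraries entered, with 4 group coefficients and 8 residual degrees of freedom. Calls needed a two-sided p under 0.05 after Benjamini-Hochberg adjustment across the genes tested. Fold changes on this scale understate the change of low genes. The edgeR quasi-likelihood test, DESeq2 1.42.0, limma-voom, TMM and other settings were alternatives, and the limma, limma-voom, edgeR and DESeq2 fits were tested on simulated data with known changes. The simulation changed genes with a mean of at least 10 CPM and held no loss of reads in single libraries, so it does not bear on the Pcf11 call. Named genes were the 10 members, list genes called by limma, 15 fixed machinery and plasma cell genes, and the 5 genes most like Ell2. Genes named outside this are said to be so, and 1 result on a marker gene is not reported here.

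A marked and an unmarked library of 1 day carry the same specimen number in the labels, which is where the pairing comes from. Residuals correlated by a median of 0.0556 within specimens (range -0.0109 to 0.115, 6 pairs) and -0.0194 between them (range -0.104 to 0.0301, 12 pairs). Among libraries other than replicate 1, library numbers are lower for all unmarked than for all marked libraries, so that order and marking cannot be told apart there. GENCODE M21 gave positions, exon lengths and overlaps, for 14165 of 14219 identifiers.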

Additional observations from a re-analysis of the deposited data

How the results depend on the processing

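The call on Pcf11 was the result that moved. The count of members called at day 270 (marked over unmarked) was 1, and it was 0 with edgeR, with DESeq2 (which gave Pcf11 no p), with limma-voom (adjusted p = 0.0902), with a pseudocount of 0.1 (0.0543), with only the groups compared (0.297), without marked libraries 2 and 3 of day 270 and, in an alternative added after seeing the data, without the 2 libraries highest in features resembling ribosomal RNA (-3.24, 0.0711). Leaving out 1 library at a time gave 0 to 1. Over both days the count was 0, and it was 1 with TMM scaling, limma-voom, a mean of at least 1 CPM, a pseudocount of 2 or the replicate block, and 0 to 1 leaving out 1 library. The block changed no other call on the members. Between days in marked cells the count was 0, and 1 with DESeq2, which called Eaf2 (-0.49, adjusted p = 0.0410). DESeq2 called 128 of all 12704 genes in that comparison. Leaving out 1 library gave 0 to 1 there, over both populations and in the interaction, with Pcf11 the gene called without marked library 1 of day 270. The count of genes called over both days in the machinery and plasma cell lists, cell type markers left out, was 0. It was 2 with DESeq2 and 1 with limma-voom, which called 544 and 312 of all 12704 genes. In the same lists between days the count was 0, and 1 with DESeq2 (Tra2b) in marked cells and 1 over both populations. DESeq2 called 128 and 142 of all 12704 genes there, and Tra2b was picked out after its values had been seen. The comparison of marked cells of day 270 with unmarked cells of day 60 was added after seeing the data. Over all genes limma called 24 at day 60 and 61 at day 270, DESeq2 119 and 256, and TMM scaling 34 (12 higher, 22 lower, against 5 and 19) and 89 (22 higher, 67 lower, against 6 and 55). Leaving out 1 library gave 3 to 18 at day 60 and 5 (without unmarked library 1) to 482 (without marked library 1) at day 270. With only the groups compared it was 69 and 0, so the shares of all genes called move with these settings.

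Of 582 fold changes under alternatives, 536 kept direction and side of the threshold, 9 passed it newly, 17 no longer passed it and 20 changed sign, all near 0. All 17 were of Pcf11, in 9 of 18 alternatives at day 270 (marked over unmarked) and in 8 of 18 for marked cells of day 270 over unmarked cells of day 60. The other results had not passed the threshold, so keeping their side of it says little about stability. Cstf2 at day 270 was 0.03 with TMM scaling, edgeR and limma-voom, 0.0019 without the 20 highest features, 0.06 with DESeq2, 0.02 without the libraries high in ribosomal features, and -0.18 to 0.02 leaving out 1 library. Hnrnpll at day 270 was 0.02 with TMM scaling, 0.08 with edgeR, 0.11 with DESeq2, 0.15 without marked libraries 2 and 3, and -0.24 to 0.13 leaving out 1 library. Hnrnph1 at day 270 was -0.05 without marked libraries 2 and 3. Leaving out 1 library gave -0.12 to 0.36 for Hnrnpf and -0.01 to 0.29 for Hnrnph1 at day 270, and -0.0044 to 0.09 for Eaf2, -0.04 to 0.43 for Hnrnpll and -0.35 to 0.10 for Hnrnph1 at day 60. The causes were not tested.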
